A study of Mus musculus with 6 samples.

Results

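The Schlafen genes were taken as every array probe set annotated to exactly 1 gene symbol among Slfn1, Slfn2, Slfn3, Slfn4, Slfn5, Slfn8, Slfn9 and Slfn10-ps. All 8 genes of the family list were found, on 12 probe sets, out of 18193 genes named on the array. RNA was measured on 6 Affymetrix mouse arrays, 3 from bone marrow of adult mice aged 12 to 18 weeks and 3 from fetal liver of E13.5 embryos. Every sample came from C57BL/6 mice of the GATA1s genotype, and each consisted of megakaryocyte progenitors sorted as lin-, Sca-1-, c-kit+, CD150+ and CD41+. GATA1s is the shortened form of GATA1, a transcription factor of the megakaryocyte and red cell lineages, and it lacks the amino-terminal part of the protein. No array of mice with intact GATA1 is used, and the genotype is the same in both tissues. Replicates are described as biological, and the number of animals behind a sample is not stated. The family was chosen by its signals in bone marrow against fetal liver on these same arrays, so its differences between the tissues are descriptions and no test is drawn from them.

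Schlafen proteins are found in mammals and take their name from the German for sleep, after a slowing of T cell growth when the first members were overproduced in mice. The short members, Slfn1 and Slfn2, and the intermediate members, Slfn3 and Slfn4, hold the conserved Schlafen core. The long members, Slfn5, Slfn8 and Slfn9, add a helicase-like region. Several are induced by type I interferon in mouse immune cells, and they are known mainly from T cells, monocytes and macrophages. The mouse genes lie next to each other on chromosome 11, and Slfn10-ps carries the symbol of a pseudogene.

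The sequences just before the start sites are shown for Slfn4, Slfn2, Slfn8 and Slfn9, with matches to AANNGAAA, the core of the interferon regulatory factor motif, or to the interferon-stimulated response element in capitals. The element was searched as GAAA, any 2 bases and GAAA again. Both were searched on both strands, so a match on the opposite strand is shown as its reverse complement, and the core is contained in the element. Slfn4 and Slfn2 had large differences between the tissues. Slfn8 and Slfn9 are neighbours with similar windows but different array values. All are RefSeq sequences of build GRCm38.p6, read 5′ to 3′ on the gene's strand.
Slfn4, chr11:83174936-83175171, plus strand: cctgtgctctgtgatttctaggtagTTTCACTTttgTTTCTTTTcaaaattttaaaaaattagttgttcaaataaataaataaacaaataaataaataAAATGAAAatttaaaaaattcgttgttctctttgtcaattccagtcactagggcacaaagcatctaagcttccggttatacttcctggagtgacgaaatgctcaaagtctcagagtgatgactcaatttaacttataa
Slfn2, chr11:83064862-83065111, plus strand: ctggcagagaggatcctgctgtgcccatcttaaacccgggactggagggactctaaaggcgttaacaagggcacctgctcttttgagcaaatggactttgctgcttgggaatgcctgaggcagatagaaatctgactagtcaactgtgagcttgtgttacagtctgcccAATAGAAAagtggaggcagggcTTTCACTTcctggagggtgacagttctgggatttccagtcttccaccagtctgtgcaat
Slfn8, chr11:83020811-83021060, minus strand: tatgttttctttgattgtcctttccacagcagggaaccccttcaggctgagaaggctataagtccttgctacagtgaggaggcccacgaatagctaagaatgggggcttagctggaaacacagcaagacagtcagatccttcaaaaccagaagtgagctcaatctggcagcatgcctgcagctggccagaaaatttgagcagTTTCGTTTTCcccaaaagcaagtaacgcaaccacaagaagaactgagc
Slfn9, chr11:82991831-82992080, minus strand: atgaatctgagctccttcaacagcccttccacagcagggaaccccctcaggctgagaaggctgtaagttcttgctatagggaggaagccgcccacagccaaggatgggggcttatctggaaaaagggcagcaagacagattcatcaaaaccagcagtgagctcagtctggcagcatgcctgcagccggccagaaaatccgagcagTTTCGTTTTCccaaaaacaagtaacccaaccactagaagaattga
The element's match in Slfn5 is shown with 10 bases on each side, since most of its window does not lie before the outermost annotated start of the gene.
Slfn5, chr11:82951937-82951966, plus strand: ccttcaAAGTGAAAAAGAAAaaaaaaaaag

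Promoter windows of 300 bases, 250 before and 50 after the start, were matched for 7 of the 8 genes. The interferon-stimulated response element was present on either strand in the windows of 3 genes, Slfn5, Slfn8 and Slfn9, and in 3.44% of all 32851 mouse windows. In Slfn9 it began at position -45 and in Slfn8 at -48, counted from the start site, or at -136 from a second Slfn8 start. In Slfn5 it began at -155. AANNGAAA was present in all 7 windows and in 23.9% of all windows. TTCNNNGAA, the pattern bound by interferon-gamma activated STAT dimers, was in none of the 7 and in 8.3% of all windows. AGATAA and TGATAA, which hold the GATA core, were present in the window of 1 member (Slfn9) and of none, against 11.2% and 9.05% of all windows. In a pairwise alignment the Slfn8 and Slfn9 windows shared 80.77% of 312 columns, while the other 20 pairs shared 46.52% to 53.03%. These are letter matches in fixed windows, and binding was not measured.

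The family split into 3 patterns. Slfn1, Slfn2, Slfn4, Slfn8 and Slfn10-ps were higher in bone marrow on every array, Slfn3 overlapped between the tissues, and Slfn9 was slightly lower in bone marrow. Slfn5 was higher in bone marrow at low signals. Values are the authors' MAS5 signals, linear intensities scaled to the same trimmed mean on every array, and a level can be set only against the same probe set on another array. A level of 10.6, the 95th percentile of 27 control probe sets for bacterial genes over all arrays, is called the control level, and signals below it carry no order. If the geometric mean of a tissue was below this level, arrays under it were raised to it and the fold is a lower bound. A lower signal of a gene in sorted cells can come from fewer cells that express it or from less RNA per cell, and these cannot be told apart.

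**Figure D1:**
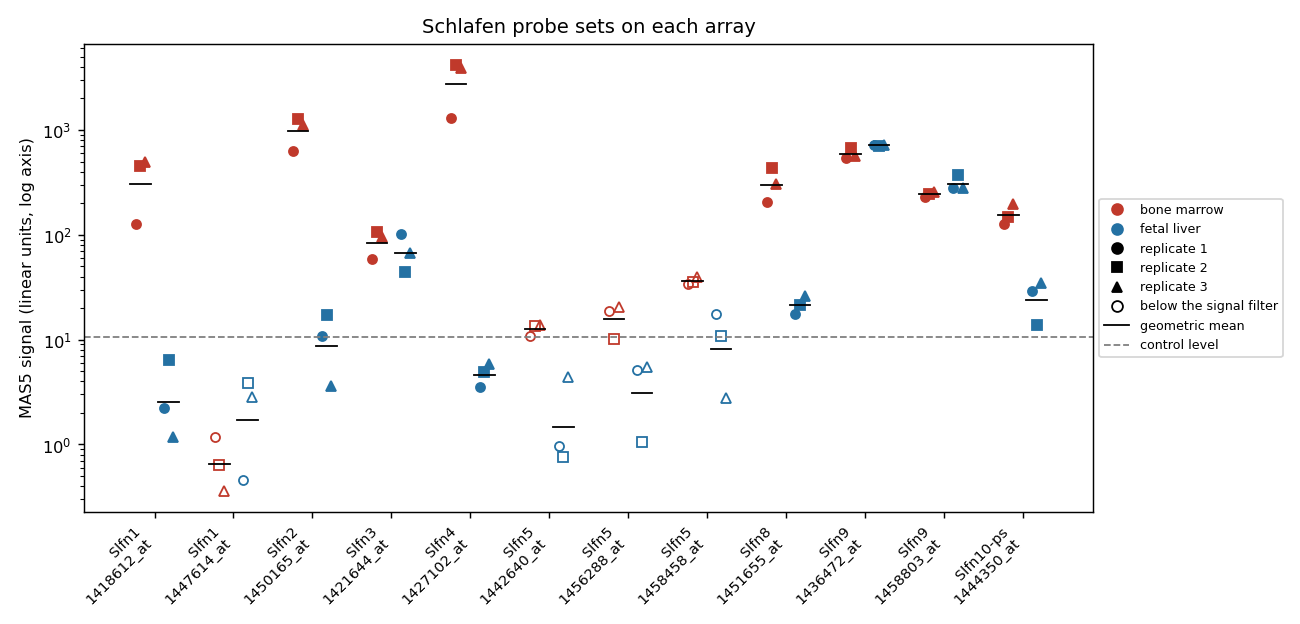
Signal of each of the 12 Schlafen probe sets on each array (log axis, MAS5 units), bone marrow in red on the left and fetal liver in blue on the right. Marker shape gives the replicate, open markers are probe sets below the signal filter, black lines are geometric means and the dashed line is the control level of 10.6. Slfn1, Slfn2 and Slfn4 lay near or below the control level in fetal liver, while the 2 Slfn9 probe sets differed little between the tissues.

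Among the short members, Slfn2, a gene needed for quiescence of T cells and monocytes in mice, had signals of 636, 1285 and 1119 in bone marrow against 10.7, 17.2 and 3.59 in fetal liver. The lowest bone marrow array lay far above the highest fetal liver array, and 1 of the 3 fetal liver arrays was below the control level. Bone marrow was at least 77.5-fold higher, and the fitted log2 difference, bone marrow minus fetal liver throughout, was 6.80 ± 0.53 (SE, n = 3 each). Slfn1, which slows T cell growth when overproduced in mice, had signals of 127, 454 and 492 in bone marrow and of 2.21, 6.44 and 1.17 in fetal liver. All fetal liver arrays were below the control level, so the difference was at least 28.7-fold, and the fitted value of 6.90 ± 0.71 rests on signals that carry no order. A second probe set annotated to Slfn1, 1447614_at, read 1.19, 0.643 and 0.362 in bone marrow and 0.462, 3.86 and 2.81 in fetal liver. It was below the control level on every array and gave no fold, so the Slfn1 values rest on 1 probe set, 1418612_at.

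Of the intermediate members, Slfn4, known from mouse monocytes and macrophages, where interferon and Toll-like receptor ligands induce it, had the largest fitted difference of the family. Its signals were 1294, 4147 and 3889.5 in bone marrow against 3.51, 4.86 and 5.80 in fetal liver. Fetal liver was below the control level on all 3 arrays, and bone marrow was at least 259-fold higher (fitted log2 difference 9.22 ± 0.43). These values rest on probe set 1427102_at alone. A probe set annotated to both Slfn4 and Slfn3, 1450322_s_at, was 2.64-fold higher in bone marrow, and which transcript it detected was not tested. Slfn3, the gene next to Slfn4 on the chromosome, had signals of 58.6, 107 and 95.8 in bone marrow and of 101, 43.7 and 66.8 in fetal liver. The tissues overlapped, and the log2 difference was 0.34 ± 0.36. Its direction depended on scaling, at -0.01 after quantile normalization and 0.01 after median centring.

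The long members fell on both sides. Slfn8 read 205, 431 and 308 in bone marrow against 17.7, 21.3 and 25.9 in fetal liver, where every array was above the control level. The tissues did not overlap, and bone marrow was 14.1-fold higher (log2 difference 3.82 ± 0.32). Probe letters were not used here, so whether probe sets of related members also detect each other's transcripts was not tested. Slfn9, whose promoter window resembles that of Slfn8, read 546, 677 and 563 in bone marrow and 726, 699 and 716 in fetal liver on probe set 1436472_at. Its second probe set, 1458803_at, read 231, 243 and 259 in bone marrow and 278, 374 and 279 in fetal liver. Both probe sets put all bone marrow arrays below all fetal liver arrays, with small log2 differences of -0.27 ± 0.13 and -0.33 ± 0.17. Slfn9 was thus the one tested member whose bone marrow arrays were all lower, and its SD was 71.3 in bone marrow around a mean of 595 and 13.7 in fetal liver around 714.

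Slfn10-ps, which lies between Slfn8 and Slfn2, read 127, 146 and 198 in bone marrow against 28.9, 13.8 and 34.8 in fetal liver. The arrays of the tissues did not overlap, and bone marrow was 6.43-fold higher (log2 difference 2.68 ± 0.38). Slfn5, a long member studied in human and mouse cells for its induction by interferon, was the only member with no probe set above the signal filter. Its brightest probe set, 1458458_at, read 34.3, 35.4 and 39.4 in bone marrow and 17.5, 10.8 and 2.77 in fetal liver, which bounds the difference at 2.87-fold or more. The other Slfn5 probe sets, 1442640_at and 1456288_at, read 10.7 to 13.7 and 10.1 to 20.7 in bone marrow, and 0.753 to 4.44 and 1.05 to 5.48 in fetal liver. On all 3 probe sets bone marrow lay above fetal liver without overlap in the deposited signals. The bounds were 1.19-fold for 1442640_at and 1.48-fold for 1456288_at. On 1456288_at the lowest bone marrow array, at 10.1, was itself below the control level, so its place above fetal liver carries no order. The filter kept probe sets whose mean log2 signal over all arrays exceeded the 40th percentile. Slfn1 lay just inside it at percentile 42.1, and the brightest Slfn5 probe set just outside at 37.0. A member that is absent in one tissue passes such a filter only through its level in the other, as Slfn1 did.

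For the 7 genes that passed the filter, limma called 5 higher in bone marrow and 0 lower, where 36.2% of all genes tested were called, 18.4% higher and 17.8% lower. Bone marrow lay above fetal liver without overlap for 5 genes and below it for 1, against 23.7% and 26.7% of all genes, 50.5% in either direction. Nothing is read from these counts, because the contrast was known when the family was proposed. The median log2 difference of the 7 genes was 3.82, which is the value of Slfn8, and that of all genes tested was -0.04. Slfn1, Slfn2 and Slfn4 stay above Slfn8 at their bounds, so using the bounds could not move this median. Over all genes, 2138 were called higher in bone marrow and 2075 lower. The lower count was 1282 without bone marrow replicate 3 and 1330 without fetal liver replicate 3. Median centring moved the median difference to -0.38, and the split was 1348 higher and 5377 lower. Under that scaling Slfn9 had a log2 difference of -0.61 and was called lower in bone marrow, while the 5 members with higher bone marrow signals had differences of 2.35 to 8.88. The labels and table give no scan batch, so none could be compared.

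Among the members tested, those with large differences lay together in the order along the chromosome. From Slfn5 the order is Slfn9, Slfn8, Slfn10-ps, Slfn2, Slfn1, Slfn4, Slfn3 and Slfn14, so the run from Slfn8 to Slfn4 was flanked by Slfn9 and Slfn3, whose differences were small. Slfn5, beyond Slfn9, was below the filter and has no tested difference. Its brightest probe set was nevertheless at least 2.87-fold higher in bone marrow. The edges of the run are thus drawn among tested genes only. Slfn14, a ribosome-associated nuclease whose human form is linked to inherited platelet disease, was not analysed here. The neighbours were the 6 nearest protein-coding genes on each side with a probe set of their own. Of these 12, 7 were tested, 1 was called higher in bone marrow and 1 lower by limma. With no filter all 12 were tested, and 3 were called higher and 1 lower. On the Slfn5 side, Rad51d, a DNA repair gene, had a log2 difference of 0.30 ± 0.10 (adjusted p = 0.0503), and Lig3, a DNA ligase, one of -0.23 ± 0.10 (adjusted p = 0.108). Nle1, a ribosome assembly gene, was at 0.37 ± 0.21 (adjusted p = 0.199), and Rffl, a ubiquitin ligase, at -0.06 ± 0.10 (adjusted p = 0.683).

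On the Slfn14 side, Ap2b1, a clathrin adaptor subunit, was at 0.12 ± 0.11 (adjusted p = 0.437). Taf15, an RNA-binding protein, was lower in bone marrow at -0.47 ± 0.13 (adjusted p = 0.0214). It lost its call without bone marrow replicate 1, bone marrow replicate 3 or fetal liver replicate 2, with adjusted p-values of 0.00319 to 0.0804 over 16 alternatives. Ccl5, a chemokine of T cells, NK cells and other leukocytes, read 103, 243 and 249 in bone marrow against 5.68, 1.24 and 10.3 in fetal liver. All its fetal liver arrays were below the control level, giving a difference of at least 17.3-fold (limma adjusted p = 4.86e-04). Without any 1 of the bone marrow arrays Ccl5 fell below the filter and was not tested. It was called in the 12 alternatives that tested it (adjusted p = 3.18e-05 to 0.00394). Wherever a filter was used, Ccl5 passed only through its bone marrow signals, so this number of calls adds no support.

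**Figure D2:**
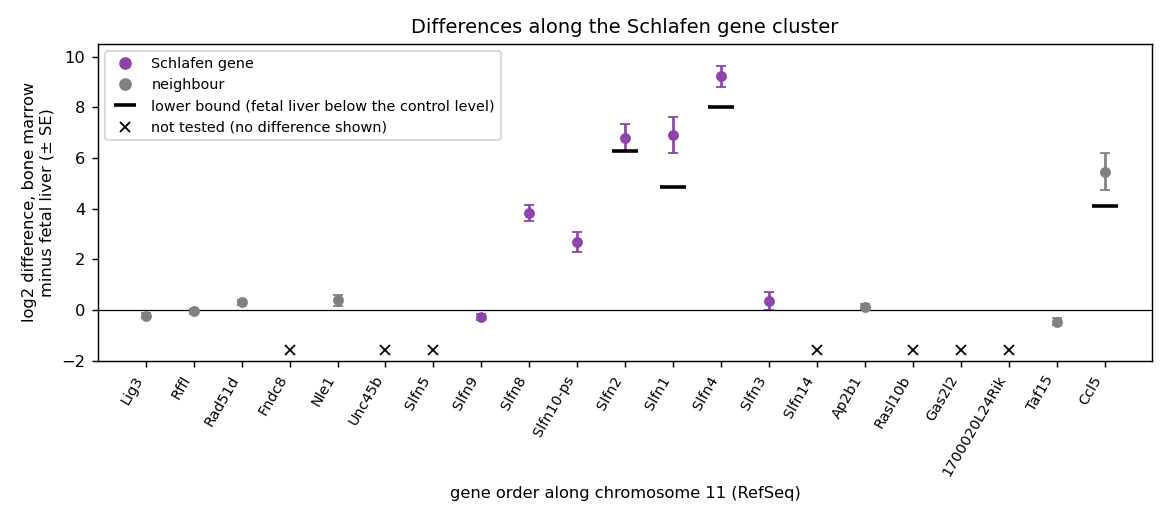
Fitted log2 difference, bone marrow minus fetal liver (± SE, 3 arrays per tissue), of each tested gene in RefSeq order along chromosome 11, Schlafen genes in purple and neighbours in grey; crosses mark genes with no tested value and black bars the lower bound where fetal liver was below the control level. The run from Slfn8 to Slfn4 lies at 2.68 to 9.22, while Slfn9, Slfn3 and 6 of the 7 tested neighbours lie between -0.47 and 0.37. Slfn5 is a cross because it was below the signal filter.

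The members also differed from each other in how they varied between replicate arrays. Within bone marrow, replicate 1 was lowest for all 7 member genes tested, and for 42.9% of all genes tested. By probe set it was lowest for all 8 that passed the filter and for 10 of all 12. Set against replicates 2 and 3 averaged, Slfn1 was at -1.90 there on the log2 scale and Slfn4 at -1.63. The deviation was -0.91 for Slfn2, -0.83 for Slfn8, -0.79 for Slfn3 and -0.42 for Slfn10-ps. The Slfn9 probe sets hardly moved, at -0.18 and -0.12, and the median over all genes tested was -0.03. Several marker lists were low on the same array, with medians of -1.23 for erythroid markers, -0.92 for B cell markers, -0.60 for T cell and NK cell markers, -0.58 for mast cell and basophil markers and -0.40 for granulocyte and monocyte markers. Interferon-stimulated genes had a median of -0.38. Macrophage and megakaryocyte markers were not low there, at 0.20 and 0.23. The part of these in the Schlafen values was not tested. Without bone marrow replicate 1 the log2 difference was 9.76 for Slfn4, 7.10 for Slfn2, 4.09 for Slfn8 and 2.83 for Slfn10-ps. Slfn1 fell below the filter when any 1 of the bone marrow arrays was left out.

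**Figure D3:**
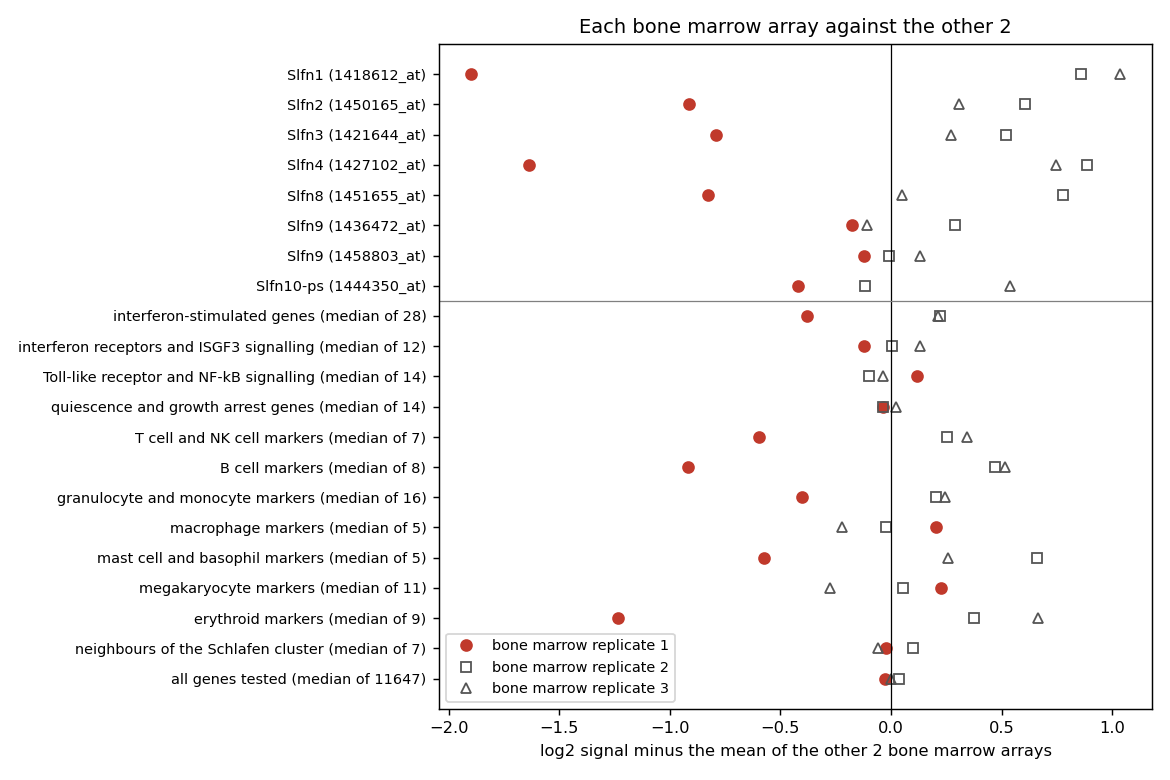
Log2 signal of each bone marrow array minus the mean of the other 2, for the 8 Schlafen probe sets above the signal filter (top) and as the median of each gene list (bottom). Replicate 1, in red, is the lowest array for all 8 Schlafen probe sets, from -1.90 for Slfn1 to -0.12 for a Slfn9 probe set, while the median of all genes lies at -0.03.

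As a measure of likeness, log2 signals were centred on each gene's mean over the 6 arrays, and the root mean square difference between 2 genes was taken. Signals below the control level enter this measure as they are. Distances that involve Slfn1, Slfn2 or Slfn4 thus rest partly on values that carry no order. Genes given as nearest to these members are listed by the computed distance only. Neither their order nor a likeness in cell type is read from the list. Whether signals raised to the control level would give the same genes was not tested. Slfn3 and Slfn9 were 0.50 apart and Slfn8 and Slfn10-ps 0.76 apart. Slfn1 and Slfn2 were at 0.43, and Slfn4 and Slfn9 at 4.77. Slfn8 and Slfn9, alike in their promoter windows, were 2.06 apart. Outside the family the genes nearest to Slfn2 were S100a8, a calcium-binding protein of granulocytes (0.34), Nlrc5, the transactivator of MHC class I genes (0.38), and Xdh, xanthine dehydrogenase (0.46). S100a8 read 8778, 11112 and 11042 in bone marrow against 138, 233 and 63.3 in fetal liver. By the same measure, and with all fetal liver signals of Slfn1 below the control level, its nearest genes were Fpr2, a formyl peptide receptor of myeloid cells (0.54), Pirb, an inhibitory receptor of myeloid and B cells (0.58), and Ighm, the immunoglobulin mu chain (0.61).

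The genes nearest to Slfn4, also below the control level on every fetal liver array, were Igha (0.60), Cd177, a neutrophil surface protein (0.69), and Lcn2, a neutrophil granule protein (0.71). Cd177 read 765, 2558 and 2882 in bone marrow against 5.83, 8.34 and 9.51 in fetal liver. The measure picks genes by these same values, so its low bone marrow replicate 1 and low fetal liver signals are not a further likeness to Slfn4. Nearest to Slfn8 were H2-DMb2, an MHC class II loading chain (0.16), Themis2, a signalling protein of B cells and macrophages (0.22), and Ccno, a cyclin-like gene (0.24). Themis2 read 458, 617 and 532 in bone marrow against 37.6, 43.1 and 55.1 in fetal liver. Slamf9 and Adamts12 (0.21 and 0.22) and Arid5a (0.26) were nearest to Slfn10-ps, and each had at least 1 fetal liver array below the control level. Slfn3 was nearest to Lct (0.12), Vat1 (0.15) and Cdk18 (0.19), and Slfn9 to Cse1l, a nuclear export factor (0.03), Cep120 (0.04) and E130309D02Rik (0.04). The measure includes the size of the difference between the tissues, and the immunoglobulin probe sets may detect related segments.

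Genes that share known inducers with the family were described from lists. Of 28 interferon-stimulated genes tested, 24 were called higher in bone marrow by limma and 0 lower, with a median log2 difference of 1.55. Those with the smallest adjusted p were Sp100, a nuclear body protein (3.83 ± 0.19, adjusted p = 1.68e-06), Ifi27l2a (5.83 ± 0.45, adjusted p = 1.60e-05) and the antiviral enzyme Rsad2 (3.65 ± 0.31, adjusted p = 3.04e-05). Leaving out 1 array gave 16 to 24 interferon-stimulated genes higher, the fewest without bone marrow replicate 3 (16 of 26 tested). The list of receptors and signal transducers, which also holds the interferon-induced Irf1, had a smaller median difference. Of 12 tested, 5 were higher and 1 lower, with a median of 0.25, and after median centring 2 were called higher. Irf1, an interferon-induced transcription factor, read 1296, 1175 and 1248 in bone marrow against 289, 257 and 291 in fetal liver (2.15 ± 0.12, adjusted p = 2.85e-06). Ifnar2, a chain of the type I interferon receptor, was at 0.77 ± 0.12 (adjusted p = 9.08e-04), and Irf9, the DNA-binding part of the ISGF3 complex, at 0.75 ± 0.15 (adjusted p = 0.00404). Irf9 lost its call after median centring, 1 of 16 alternatives (adjusted p = 0.00124 to 0.0707).

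Of 14 Toll-like receptor and NF-kB signalling genes tested, 7 were called higher in bone marrow and 0 lower, or 1 lower after median centring, with a median of 0.50. The count was 4 without bone marrow replicate 1, bone marrow replicate 3 or fetal liver replicate 3, and also after median centring. Cd14, the lipopolysaccharide co-receptor of monocytes, read 931, 722 and 967 in bone marrow and 18.1, 21.0 and 1.15 in fetal liver, a difference of at least 54.4-fold. Tlr4 was at 1.54 ± 0.26 (adjusted p = 0.00158) and Tlr2 at 1.32 ± 0.24 (adjusted p = 0.00291). Of 14 quiescence and growth arrest genes, 10 were higher in bone marrow and 1 lower, with a median of 0.84. Klf4 (4.06 ± 0.18, adjusted p = 1.15e-06) and Klf2 (3.56 ± 0.30, adjusted p = 3.19e-05), transcription factors that restrain growth, and the kinase inhibitor Cdkn2c (3.64 ± 0.25, adjusted p = 1.03e-05) had the smallest adjusted p-values. Cdkn1c, also a kinase inhibitor, was the gene called lower (-1.26 ± 0.37, adjusted p = 0.0262) and is named after its value was seen. No gene of the list was called lower with no filter, with the filter at the 60th percentile, or without bone marrow replicate 2, bone marrow replicate 3 or fetal liver replicate 2, and 3 were after median centring.

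Markers of other blood cells moved in the same direction as Slfn1, Slfn2, Slfn4, Slfn8 and Slfn10-ps, although the sort took lin- cells. Of all genes tested, 18.4% were called higher. A marker below the control level in fetal liver passed the filter only through bone marrow, so counts among tested markers favour bone marrow. Among granulocyte and monocyte markers, all 16 tested were called higher in bone marrow, with a median log2 difference of 5.37. Their summed signal was 62046 to 80856 in bone marrow and 7933 to 9924 in fetal liver. Ngp (8.04 ± 0.20, adjusted p = 1.55e-07) and Elane (5.70 ± 0.17, adjusted p = 2.33e-07), granule proteins, and Lcn2 (8.13 ± 0.23, adjusted p = 2.33e-07) led that list. Of 8 B cell markers tested, 7 were higher, with a median of 4.92, or 4.36 with genes below the control level at their bounds. Their summed signal was 3536 to 5289 in bone marrow and 1310 to 1509 in fetal liver, where 6 of 11 were below the control level.

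T cell and NK cell markers, the cells in which Slfn1 and Slfn2 are best known, were mixed. Of 7 tested, 3 were higher and 0 lower, with a median of 2.18. The lower count was 2 after median centring and 1 under several other alternatives, among them quantile normalization and leaving out fetal liver replicate 1 or 2. Their summed signal was 5615 to 6092 in bone marrow and 2385 to 2717 in fetal liver, and most of the bone marrow sum came from Nkg7 alone. Cd3e, Cd3d and Cd3g encode CD3 chains of the T cell receptor complex. They were above the control level in bone marrow and below it in fetal liver, as were 7 of 12 markers in all. Nkg7, an NK cell granule protein, read 3962, 3645 and 3736 in bone marrow against 970, 830 and 725 in fetal liver (2.18 ± 0.12, adjusted p = 2.42e-06). Cd2 was at least 15.4-fold higher (limma adjusted p = 2.81e-05) and Klrd1 at least 8.20-fold (limma adjusted p = 4.32e-04). Without fetal liver replicate 2 or 3, 5 of 8 markers tested were higher.

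Of 12 macrophage markers, 5 passed the filter and all 5 were called higher (median 2.84), while 7 of the 12 were below the control level in fetal liver. The summed signal over the 12 genes was 1946 to 2343 in bone marrow and 331 to 334 in fetal liver. The complement gene C1qb was at 3.53 ± 0.31 (adjusted p = 3.74e-05), and Adgre1, Cd68 and Mrc1 ranged from 1.54 to 2.84. Vcam1, below the control level on every fetal liver array, was at least 41.3-fold higher. Without any 1 of the fetal liver arrays 8 of 8 tested were higher. Marco and Siglec1, which mark tissue macrophages, were below the control level in both tissues. Of 9 mast cell and basophil markers, 5 passed the filter and all 5 were called higher, with a median of 4.03, or 3.59 with bounds. In fetal liver 5 of the 9 markers were below the control level. Their summed signal was 4034 to 5232 in bone marrow and 263 to 372 in fetal liver. Without bone marrow replicate 2 or 3, 3 of 4 tested were higher. Fcer1a was at least 218-fold higher, Mcpt8 at least 80.2-fold and Ms4a2 at least 9.67-fold. Hdc had a log2 difference of 3.59, and Cpa3, at 0.84, was called in 8 of 16 alternatives.

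Markers of the labelled cell type gave signal in both tissues. This does not by itself identify the cells, since all erythroid markers were also above the control level in both tissues. Of 11 megakaryocyte markers tested, none was below the control level in either tissue, 1 was higher in bone marrow and 2 lower, with a median of -0.36. The adhesion receptor gene Selp was higher (3.25 ± 0.32, adjusted p = 8.32e-05), and the platelet tubulin Tubb1 (-3.41 ± 0.28, adjusted p = 2.52e-05) and Gp9 (-1.23 ± 0.18, adjusted p = 8.56e-04) were lower. Without fetal liver replicate 1, on which the median of these markers deviated by -1.13 from the other fetal liver arrays, 6 were called lower, and after median centring 4. Without fetal liver replicate 2, 2 were higher. Of 9 erythroid markers, 5 were higher and 1 lower, or 0 lower without fetal liver replicate 2 (median 1.49), with summed signals of 12810 to 24084 in bone marrow and 9123 to 10927 in fetal liver. Slc4a1, Alas2 and Rhd were at 2.85 to 4.11. The part of any of these cells in the Schlafen values was not tested.

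**Figure D4:**
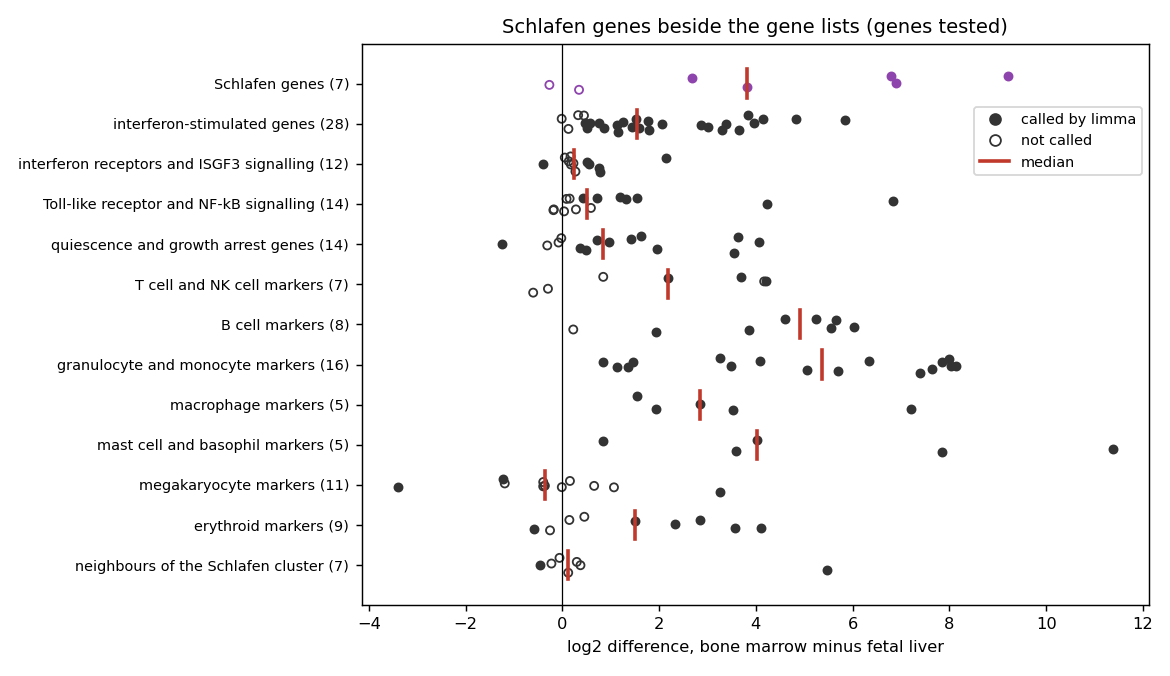
Fitted log2 difference, bone marrow minus fetal liver, of each tested gene in the Schlafen family (purple, top) and in the gene lists, with the number of genes in brackets; filled points were called by limma, open points were not, and red lines are medians. Schlafen genes run from -0.27 to 9.22 with a median of 3.82, beside medians of 1.55 for interferon-stimulated genes, 5.37 for granulocyte and monocyte markers and 0.12 for neighbours of the cluster.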

How the data were processed

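The authors deposited 1 linear intensity per probe set on each array. MAS5 is the tool in the submitters' processing notes, with no version there. Each array had a 2% trimmed mean of 500. Of 45101 probe sets, 34945 had 1 gene symbol in the platform annotation. The log2 of each deposited signal was taken without an offset. Probe sets with a mean log2 signal above the 40th percentile (a signal of 22.9) were kept, and the brightest one stood for each of 11647 genes. limma 3.58.1 (R 4.3.3) fitted tissue alone, with a trended variance prior, 4 residual degrees of freedom and Benjamini-Hochberg adjustment over all genes at 0.05. Differences of single probe sets came from the same fit without the filter. With 3 arrays against 3 an exact permutation test cannot go below 0.1, and p-values measure only the spread between these samples. The test was checked on simulated data. Array medians were 65.9 to 74.6 in bone marrow and 52.0 to 59.1 in fetal liver, and the number of arrays limits the precision. Members and lists were chosen with earlier results of these data known. Named were all members, the 3 list genes with the smallest adjusted p (all where under 6 were tested, and all tested neighbours) and the 3 nearest genes per member. Same-numbered arrays did not deviate together (r = -0.08, 0.07 and -0.11 across genes), and no pairing was fitted. With 3 arrays per tissue these values cannot exclude a pairing. Promoters were searched and aligned with Python 3.11.15 and Biopython 1.88. Alternatives were other filters, scalings, offsets, floors, probe set summaries and priors, a replicate block, and leaving out each array.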

Additional observations from a re-analysis of the deposited data

Results flagged for a closer look

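A probe set outside the member rule, 1450322_s_at, is annotated to both Slfn4 and Slfn3 and carried signal well above the control level of 10.6, which is why it is listed. It read 121, 204 and 226 in bone marrow (mean 184) against 85.8, 92.1 and 38.7 in fetal liver (mean 72.2). The tissues did not overlap, and the log2 difference was 1.40 ± 0.37 (SE, n = 3 each), between those of Slfn3 (0.34) and Slfn4 (9.22) on their own probe sets. Which transcript it detected was not tested.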

How the results depend on the processing

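Of 285 counts under the alternatives, 246 stayed within 1.5 times the reported count. Median centring gave 6725 genes called, 1348 higher in bone marrow and 5377 lower, with 1 Schlafen gene lower, 2 interferon signalling genes and 4 Toll-like receptor and NF-kB genes higher. The stricter filter at the 60th percentile, which tests fewer genes, gave 1402 genes higher in bone marrow and left 1 Schlafen gene, Slfn9, so 0 were called (that gene was also not called at any scaling but median centring). It gave 14 interferon-stimulated, 3 Toll-like receptor and NF-kB, 1 T cell and NK cell, 1 B cell, 1 macrophage, 2 mast cell and basophil and 0 neighbouring genes. With no filter there were 7 T cell and NK cell, 9 macrophage and 3 neighbouring genes, with the offset of 7.53 there were 5 and 8 of the first 2 kinds, and with the floor 5 and 9. Without the variance trend 2 neighbours were higher. Leaving out 1 array gave 1282 to 2177 genes lower in bone marrow and 4 to 6 Schlafen genes higher. The count of Schlafen probe sets with bone marrow above fetal liver without overlap was 8 in each case. Removing an array cannot create an overlap, so this count could not fall and is no sign of stability. It is nevertheless included in the 246. The lists ranged over 4 to 9 (Toll-like receptor and NF-kB), 2 to 5 (T cell and NK cell), 4 to 8 (macrophage), 3 to 5 (mast cell and basophil), 1 to 2 (megakaryocyte) and 0 to 1 (neighbours). The causes were not tested beyond the fewer genes or arrays these settings use. A replicate block gave 3847 genes called and 5 Schlafen genes higher, and changed no Schlafen call. Signals below the control level limit Slfn1, Slfn2, Slfn4 and Slfn5: with the floor the log2 difference was 4.84 for Slfn1 and 8.02 for Slfn4. The floor also left 7 Schlafen probe sets with bone marrow above fetal liver without overlap, against 8 in the deposited signals.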

Other observations

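Other probe sets named for the family had little signal. Slfnl1, a Schlafen-like gene on another chromosome, read 15.1, 2.97 and 21.8 in bone marrow and 7.38, 16.2 and 4.60 in fetal liver, so the tissues overlapped around the control level. Slfn5os, a non-coding RNA gene that overlaps Slfn5, read 5.21, 6.91 and 1.39 in bone marrow and 2.28, 2.97 and 1.62 in fetal liver, below the control level on all 6 arrays.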
